A study of Mus musculus with 6 samples.

Results

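The 10 genes described here, Atf4, Ddit3, Atf3, Trib3, Chac1, Asns, Sesn2, Nupr1, Ddit4 and Ppp1r15a, belong to the stress response run by the transcription factors ATF4 and CHOP. They were chosen by name, each had a single row in the files, and they are 10 of 23099 genes measured. Polyadenylated RNA was sequenced from the pancreas of mice aged 8 weeks, in 3 wild-type (WT) libraries and 3 libraries of the Ela1-Myc genotype. Ela1-Myc mice carry the growth-promoting transcription factor gene Myc under the promoter of elastase 1, an enzyme made by acinar cells. The labels used here do not name the strain or say whether each library came from a single mouse. The limma p-values below weigh the difference between groups against the spread between these libraries, which may not be that between mice. The comparison asks how these stress genes stand in a pancreas whose acinar cells express Myc.

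When unfolded protein builds up in the endoplasmic reticulum (ER), or amino acids run short, kinases such as PERK and GCN2 phosphorylate the translation factor eIF2. Most protein synthesis then slows, while the messenger RNA of Atf4 is translated more, so the level of that messenger does not report the amount of ATF4 protein. ATF4 switches on genes for amino acid supply and, with prolonged stress, Ddit3, which encodes CHOP. Pancreatic acinar cells make very large amounts of secreted protein, and the exocrine pancreas degenerates in mice that lack PERK.

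ATF4 pairs with C/EBP proteins on a composite DNA element, whose core is written here as TGATGNAA, where N is any base. These letters, read on both strands, were found in the 250 bases before the start of 4 of the 10 genes, namely Asns, Chac1, Nupr1 and Atf3, and in 3.45% of the 32851 windows of the same length in the RefSeq promoter table (GRCm38.p6), which holds all 10 genes. The cAMP response element TGACGTCA was found in Ppp1r15a alone of the 10, and in 1.55% of all windows. The 5 windows with these letters are printed because the letters are those that ATF4 and its relatives bind. Each runs 5′ to 3′ on the strand of its gene, with the matching letters in capitals.
Asns (chr6:7693210-7693459, minus strand): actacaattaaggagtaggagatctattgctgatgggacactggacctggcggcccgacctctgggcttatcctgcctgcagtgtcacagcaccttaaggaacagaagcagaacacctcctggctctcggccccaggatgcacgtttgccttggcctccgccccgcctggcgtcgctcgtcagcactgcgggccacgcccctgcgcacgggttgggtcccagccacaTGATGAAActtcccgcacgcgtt
Chac1 (chr2:119350992-119351241, plus strand): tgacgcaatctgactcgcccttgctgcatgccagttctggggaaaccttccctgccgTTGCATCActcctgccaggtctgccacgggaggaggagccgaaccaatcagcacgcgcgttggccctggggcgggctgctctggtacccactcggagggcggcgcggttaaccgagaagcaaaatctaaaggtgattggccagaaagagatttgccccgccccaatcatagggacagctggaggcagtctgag
Nupr1 (chr7:126625471-126625720, minus strand): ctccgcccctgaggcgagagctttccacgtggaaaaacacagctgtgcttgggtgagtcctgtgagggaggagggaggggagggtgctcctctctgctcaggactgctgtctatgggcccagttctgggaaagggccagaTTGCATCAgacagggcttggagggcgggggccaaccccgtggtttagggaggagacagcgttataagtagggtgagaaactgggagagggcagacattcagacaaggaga
Atf3 (chr1:191183334-191183583, minus strand): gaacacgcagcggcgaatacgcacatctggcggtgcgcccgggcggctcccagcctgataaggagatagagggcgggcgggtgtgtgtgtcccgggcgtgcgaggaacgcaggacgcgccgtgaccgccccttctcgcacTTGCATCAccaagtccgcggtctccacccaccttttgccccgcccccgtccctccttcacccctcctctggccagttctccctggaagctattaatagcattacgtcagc
Ppp1r15a (chr7:45526269-45526518, minus strand): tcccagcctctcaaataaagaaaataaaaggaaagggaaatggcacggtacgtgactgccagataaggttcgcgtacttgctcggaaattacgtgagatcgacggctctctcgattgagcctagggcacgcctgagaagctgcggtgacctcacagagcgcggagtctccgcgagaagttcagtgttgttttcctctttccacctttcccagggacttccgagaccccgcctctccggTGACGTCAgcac

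In Asns the core ended 16 bases before the RefSeq start, closest of the 4, and in Chac1 it ended 186 bases before. In Nupr1 and Atf3 it lay at the same distance, ending 103 bases before the start. For Asns the window reaches down to position 7693210, while the locus measured below ends at 7693182, so these starts differ. Other motifs were searched on both strands. The AP-1 letters TGANTCA were found in Ddit3 (6.75% of all windows), the E-box letters CACGTG, which MYC can bind, in Nupr1 (6.02%), and the CCAAT box in Atf4, Ddit3, Chac1, Sesn2 and Ddit4 (33.8%). Trib3 held none of the 5 motifs in this window. None of the matches in the 10 genes overlapped another. A match describes letters, not a bound site.

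**Figure D1:**
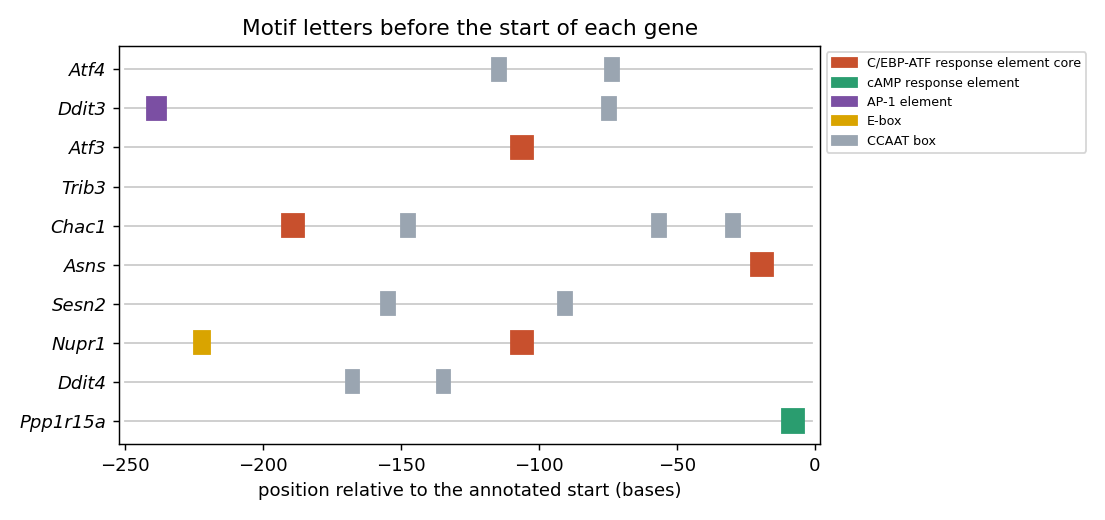
Positions of matches to 5 motifs in the 250 bases before the annotated start of each of the 10 genes, with position in bases relative to the start on the horizontal axis and 1 line per gene. The C/EBP-ATF core lies in 4 genes, and in Nupr1 and Atf3 it ends 103 bases before the start.

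Levels are the authors' adjusted FPKM divided by 100000, where FPKM is a fragment count corrected for transcript length and library size, and the depth of the libraries is unknown. The sources used here do not give how the values were adjusted. Of the 8802 genes with a mean level of at least 1, between 592 and 1426 were listed at 0 in a WT library and between 0 and 29 in an Ela1-Myc library, so a listed 0 does not show that a gene is silent. On the deposited scale the median tested gene lay 1.22 log2 units higher in Ela1-Myc. Median-of-ratios scaling, which levels the libraries on genes above 0 in all 6, moved that median to 0.22. Each gene is given on both scales, and where they differ in direction the files do not settle it. RNA integrity numbers were 7.1 to 7.3 in WT and 7.2 to 8.8 in Ela1-Myc, with 5 of the 6 below the protocol's 8.5. Myc itself was at 52.0, 34.4 and 34.2 in Ela1-Myc, at 4.10 in WT replicate 2 and at 0 in the other WT libraries. All 12 acinar markers were in the files, and digestive enzymes made up 90.9% to 91.2% of the summed levels in WT and 61.9% to 74.7% in Ela1-Myc.

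Calls differed among the 10 genes. Ddit3, Atf3 and Ddit4 were higher in Ela1-Myc and passed the test on both scales, and the other 7 passed on neither. On the deposited scale 3 of 10 were called, all higher, where 70.5% of all tested genes were called, 70.2% higher and 0.239% lower (limma on log2(level + 1), Benjamini-Hochberg adjusted p under 0.05). After scaling 3 of 10 were called, all higher, where 24.1% of all tested genes were called, 17% higher and 7.08% lower. Those 3 are also the genes listed at 0 in at least 2 WT libraries. They met the filter on low levels through their Ela1-Myc values, so a difference was built into their selection. The split in calls therefore does not show that the 10 genes moved differently. The median log2 change of the 10 was 0.60 on the deposited scale, beside 1.22 for all tested genes, and -0.41 after scaling, beside 0.22.

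The 7 genes above 0 in all 6 libraries all had negative log2 changes after scaling. Their median was -0.89, beside 0.034 for the 6995 tested genes above 0 in all libraries. How many of those genes had a negative change was not counted. Fitted after scaling among the 6995 tested genes above 0 in all libraries, none of the 7 was called higher (9.21% of those genes were). At an unadjusted limma p under 0.05, 0 of the 7 were higher and 5 were lower, beside 1281 and 1228 of the 6995. Asns and Chac1 were called lower (9.78% of those genes were), with limma adjusted p = 0.0473 and 0.0276. Under quantile normalization, Atf3 and Ddit4 were called higher (10.9% of tested genes) and Atf4, Chac1, Asns, Nupr1 and Ppp1r15a lower (15.6%), where 26.5% were called in all.

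**Figure D2:**
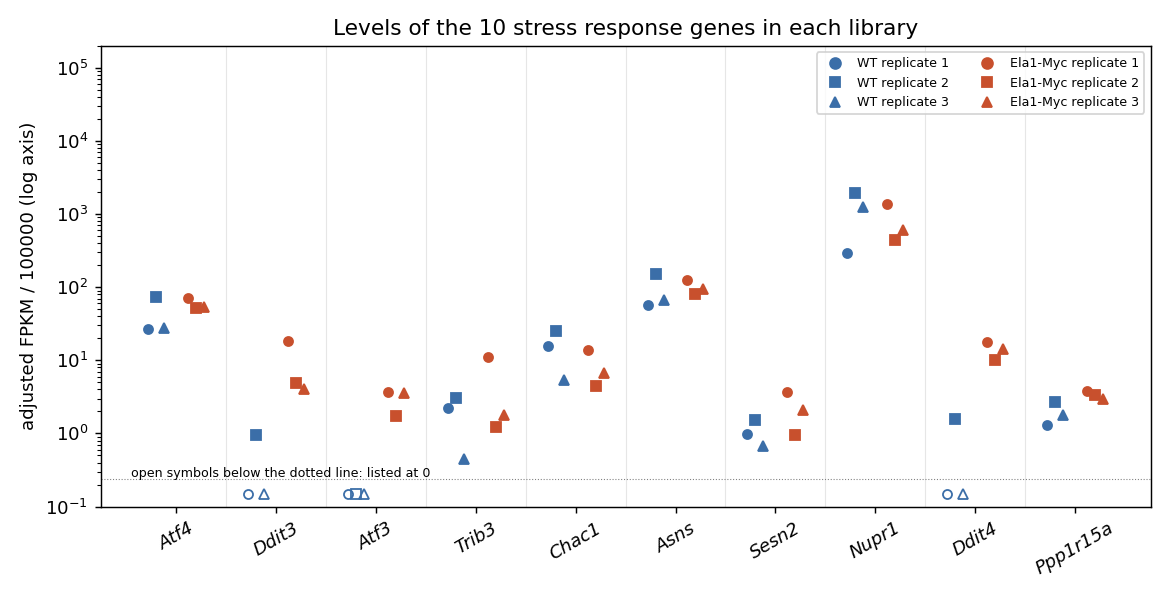
Level of each of the 10 genes in each library (adjusted FPKM divided by 100000, log axis), with WT in blue, Ela1-Myc in orange and 1 symbol shape per replicate number. Open symbols below the dotted line are libraries where the gene is listed at 0, which are WT libraries of Ddit3, Atf3 and Ddit4.

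Atf4 (chr15:80255184-80257541, GRCm38), the factor at the head of the response, measured 26.5, 73.4 and 27.6 across WT replicates 1 to 3. The Ela1-Myc libraries measured 71.3, 51.9 and 53.6. WT replicate 2 was the highest of all 6, so the groups overlapped. The mean was 42.5 ± 26.8 for WT and 58.9 ± 10.7 for Ela1-Myc (SD, n = 3 each), and the log2 change was 0.61 ± 0.73 (SE; limma adjusted p = 0.446). Without WT replicate 2 it was 1.08 and passed (limma adjusted p = 0.0159). After scaling, the 3 Ela1-Myc values were all lower than the 3 WT values, but the log2 change of -0.89 did not pass (limma adjusted p = 0.143).

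Ddit3 (chr10:127290793-127296288) encodes CHOP, a transcription factor linked to cell death under lasting ER stress. WT replicates 1 and 3 were listed at 0 and WT replicate 2 measured 0.965, against 18.6, 4.87 and 4.02 for Ela1-Myc. No Ela1-Myc library overlapped with WT, and Ela1-Myc replicate 1 stood well above the other two. Ddit3 passed on the deposited scale (limma adjusted p = 0.000267) and narrowly after scaling (limma adjusted p = 0.0428), with listed zeros taken as measured. After scaling it no longer passed without Ela1-Myc replicate 1, 2 or 3 (limma adjusted p = 0.0564, 0.115 and 0.0698) or without WT replicate 1 or 3 (0.0754 and 0.111). It still passed without WT replicate 2 (0.0273). Ddit3 shares 68 bases with Mars, the methionyl-tRNA synthetase gene, which measured 4.41 to 14.4 in WT and 10.6 to 23.1 in Ela1-Myc. Reads of the shared stretch may have been split between them.

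Atf3 (chr1:191170297-191183333), a stress-induced relative of ATF4 whose promoter window holds the core printed above, was listed at 0 in all 3 WT libraries. Ela1-Myc libraries measured 3.65, 1.73 and 3.62, so the groups did not overlap. It passed on both scales (limma adjusted p = 5.95e-05 and 0.00384), and did so whichever single library was left out. With WT listed at 0 throughout, leaving out a WT library did not move its log2 change of 1.96 on the deposited scale. A difference was built into its selection, as stated above.

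Nupr1 (chr7:126623246-126625470), a small chromatin protein first found in inflamed pancreas, had the highest level per length of the 10. WT libraries measured 296, 1965 and 1259, and Ela1-Myc libraries 1395, 444 and 609. The groups overlapped widely, with WT replicate 1 the lowest of all. The log2 change was -0.32 ± 0.85 (SE; limma adjusted p = 0.734), or -1.85 after scaling (limma adjusted p = 0.0763). On the deposited scale the sign turned without WT replicate 2 (0.24) or without Ela1-Myc replicate 2 (0.032). After scaling Nupr1 passed as lower without Ela1-Myc replicate 1 or WT replicate 1 (limma adjusted p = 0.0448 and 0.0338).

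Ppp1r15a and Trib3 restrain the response. Ppp1r15a (chr7:45522917-45526268) encodes GADD34, which directs a phosphatase to eIF2, and measured 1.32, 2.73 and 1.803 in WT against 3.79, 3.39 and 2.93 in Ela1-Myc. The groups did not overlap, with Ela1-Myc higher, but the log2 change of 0.59 ± 0.32 (SE) did not pass (limma adjusted p = 0.105). It passed as higher without WT replicate 2 (0.77, limma adjusted p = 0.0172) and with array weights (0.62, limma adjusted p = 0.00486). After scaling the order was the opposite, with Ela1-Myc lower in every library and a log2 change of -0.49 (limma adjusted p = 0.116). Trib3 (chr2:152337425-152344060), a pseudokinase that binds and dampens ATF4 and CHOP, measured 2.25, 3.09 and 0.451 in WT against 11.2, 1.23 and 1.79 in Ela1-Myc. Only Ela1-Myc replicate 1 lay above the WT range. The log2 change was 0.66 ± 0.55 (SE; limma adjusted p = 0.284), and -0.11 without that library. After scaling it was -0.33 (limma adjusted p = 0.749), and the groups overlapped.

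Asns and Chac1 act in amino acid and thiol metabolism, and neither was called on the deposited scale or after scaling. Asns (chr6:7675171-7693182), which makes asparagine from aspartate, measured 58.0, 152 and 66.5 in WT against 125, 81.9 and 93.5 in Ela1-Myc. The means, 92.3 ± 52.2 and 100.1 ± 22.2 (SD, n = 3 each), differed by less than the spread, with a log2 change of 0.23 ± 0.77 (SE; limma adjusted p = 0.788). After scaling the WT libraries measured 145, 177 and 113 and the Ela1-Myc libraries 78.7, 54.1 and 45.3. These no longer overlapped, and the log2 change of -1.29 missed the threshold (limma adjusted p = 0.0554). It passed as lower with the digestive enzymes left out (limma adjusted p = 0.0388) and, after scaling, without Ela1-Myc replicate 1 (0.0451). Chac1 (chr2:119351242-119354327), which breaks down glutathione, measured 16.0, 25.5 and 5.38 in WT against 14.0, 4.44 and 6.69 in Ela1-Myc. The groups overlapped, with a log2 change of -0.73 ± 0.62 (SE; limma adjusted p = 0.287). After scaling Ela1-Myc was lower in every library and the log2 change was -2.09 (limma adjusted p = 0.0504), which passed without WT replicate 3 (0.0225).

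Ddit4 and Sesn2 restrain the growth kinase mTORC1. Ddit4 (chr10:59949675-59951770), which encodes REDD1, was listed at 0 in WT replicates 1 and 3 and measured 1.59 in WT replicate 2, against 17.7, 10.3 and 14.1 for Ela1-Myc. The 3 Ela1-Myc values lay close together, above all of WT. It passed on both scales (limma adjusted p = 3.07e-05 and 0.00884), and did so whichever single library was left out. As with Ddit3 and Atf3, a difference was built into its selection. Sesn2 (chr4:132492807-132510456), a leucine sensor, measured 0.976, 1.55 and 0.683 in WT against 3.74, 0.965 and 2.11 in Ela1-Myc. The groups overlapped through Ela1-Myc replicate 2. The log2 change was 0.59 ± 0.33 (SE; limma adjusted p = 0.119), and 0.91 without that library, where it passed (0.0408). After scaling it was -0.30 (limma adjusted p = 0.491).

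**Figure D3:**
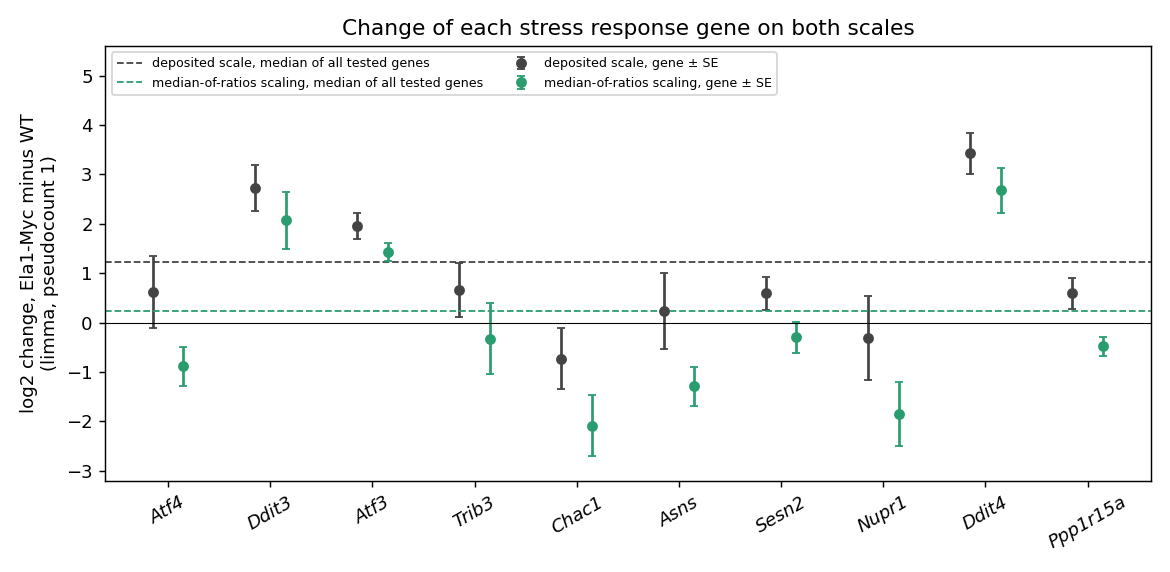
Log2 change (Ela1-Myc minus WT, limma, level + 1) of each of the 10 genes with its standard error, on the deposited scale (dark) and after median-of-ratios scaling (green), with dashed lines at the median of all tested genes on each scale, 1.22 and 0.22. Ddit3, Atf3 and Ddit4 lie above the median on both scales with listed zeros taken as measured, and the other 7 lie below it on both.

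Counted by overlap, 4 of the 10 genes had Ela1-Myc entirely above WT on the deposited scale, where 75.3% of tested genes did, and 0 had it entirely below, where 0.534% did. After scaling 3 were above (28.9% of tested genes) and 4, Atf4, Chac1, Asns and Ppp1r15a, were below (17.2%). Ranks within a library do not depend on the scale between libraries. Among the tested genes, with rank 1 the highest, Atf4 held ranks 272, 302 and 320 in WT against 449, 565 and 542 in Ela1-Myc. Asns held ranks 162, 185 and 191 against 296, 387 and 328, and Nupr1 ranks 50, 34 and 34 against 63, 133 and 99. In all, 5 of the 10 genes ranked lower in every Ela1-Myc library than in every WT library (34.2% of tested genes), namely Atf4, Chac1, Asns, Nupr1 and Ppp1r15a. Ddit3 and Ddit4 ranked higher in the same sense (17.9%). For Ddit3, Atf3 and Ddit4 a difference was built into their selection, so their place above WT in these counts adds no support. The tested genes include 1807 that were listed at 0, and so ranked last, in at least 1 WT library.

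Dividing each gene by Atf4 in the same library removes any factor common to that library. This comparison was added after the data were examined. Asns measured 2.19, 2.08 and 2.41 times the level of Atf4 in WT against 1.75, 1.58 and 1.74 times in Ela1-Myc. Both groups were tight and did not overlap, with means of 2.23 ± 0.172 and 1.69 ± 0.0983 (SD, n = 3 each). The exact permutation test, two-sided, gave p = 0.1, which is the minimum for 3 against 3, or 0.225 adjusted over the 9 ratios. Asns was the only 1 of the 9 with a ratio entirely below WT, where 3.23% of tested genes were. Ddit3, Atf3 and Ddit4 had ratios entirely above WT, where 54.8% of tested genes did, each with the same exact permutation p and adjusted value. They met the filter on low levels through their Ela1-Myc values, so this order was built into their selection and the test adds no support. In Ela1-Myc, Ddit3 reached 0.260, 0.0939 and 0.0749 of the Atf4 level, beside 0.0131 in WT replicate 2. Ddit4 reached 0.249, 0.198 and 0.264, beside 0.0217. The ratio of Chac1 was 0.602, 0.348 and 0.195 for WT against 0.197, 0.0856 and 0.125 for Ela1-Myc, which overlapped by a small margin (exact permutation p = 0.2). Nupr1, Trib3, Sesn2 and Ppp1r15a had overlapping ratios (exact permutation p = 0.3, 0.8, 0.5 and 0.5).

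**Figure D4:**
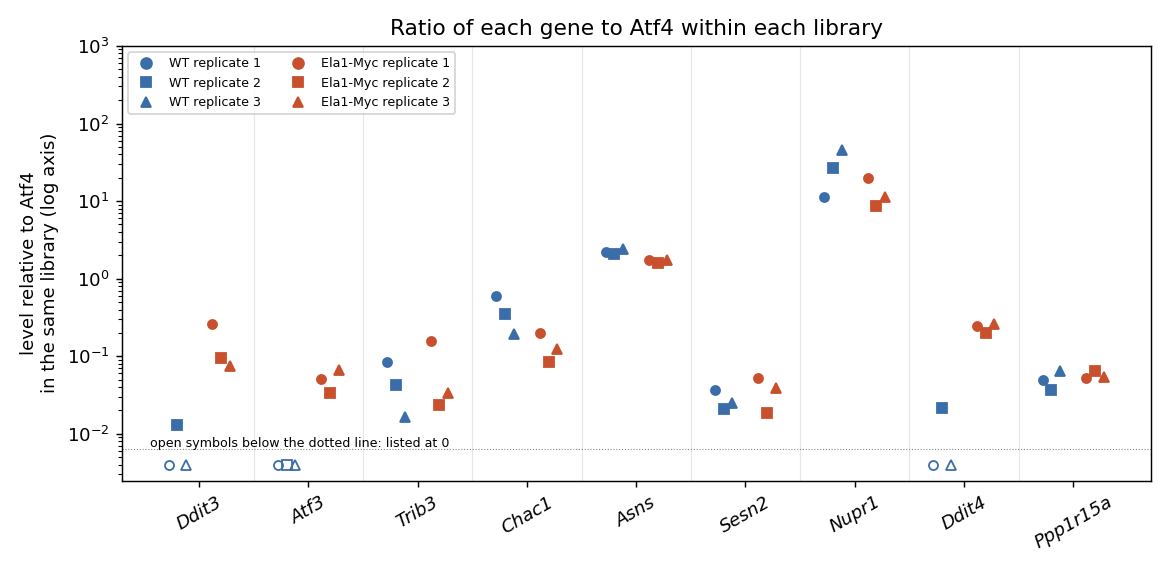
Level of each of the other 9 genes divided by that of Atf4 in the same library (log axis), with WT in blue, Ela1-Myc in orange and open symbols for genes listed at 0. Asns lies between 2.08 and 2.41 in WT and between 1.58 and 1.75 in Ela1-Myc.

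Within the Ela1-Myc group the 10 genes were highest in the same library, though on the deposited scale Atf3 only narrowly (3.65 against 3.62 in replicate 3). Replicate 1 held the highest of the 3 Ela1-Myc values for 10 of 10 genes on the deposited scale, where this was so for 28.5% of all tested genes, and for 10 of 10 after scaling, where it was so for 39.6%. On the deposited scale it was also highest for 13 of 13 tRNA synthetase genes and 19 of 22 amino acid genes of the ATF4 programme. It was highest for 18 of 23 genes of the IRE1 and ATF6 branches and for 13 of 22 other listed targets of ATF4 and CHOP. It was highest for 3 of 9 bZIP genes and 2 of 10 genes for eIF2, its kinases and its phosphatase. After scaling the counts were, in the same order, 13 of 13, 20 of 22, 22 of 23, 15 of 22, 6 of 9 and 3 of 10. Replicate 1 had the highest RNA integrity number (8.8) and the highest share of digestive enzymes (74.7%) of the 3. Its summed levels of 11 myeloid and 9 lymphocyte markers, 333 and 20.0, were the lowest of the 3, beside 782 to 1064 and 122 to 205 in the others. The part of these differences in the stress gene levels was not tested.

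Markers of other cell types are counted here by how many had Ela1-Myc entirely above WT on the deposited scale, as 75.3% of all tested genes had. Of the myeloid markers 9 of 11 did, with sums of 17.9 to 92.1 in WT against 333 to 1064, and the macrophage marker Cd68 was listed at 0 in all 3 WT libraries. Stellate and fibroblast markers gave 7 of 8, with sums of 49.3 to 113 against 373 to 579. These shares lie near that of all tested genes. Duct markers gave 5 of 7 (73.2 to 206 against 186 to 344), endothelial markers 5 of 7 (15.7 to 24.4 against 39.0 to 55.5) and islet markers 4 of 8 (0.116 to 2477 against 2444 to 3359.7). The duct marker Muc1 lay entirely below WT. Lymphocyte markers gave 3 of 9, with sums of 0 to 40.5 against 20.0 to 205, and all of them were listed at 0 in WT replicate 3. Adipocyte markers gave 0 of 7, with overlapping sums of 15.0 to 283 against 169 to 598. Of the acinar markers 1 of 12 lay above and 3 entirely below, where 0.534% of all tested genes lay below. The acinar marker above was Amy2a5, listed at 0 in WT replicates 1 and 3. The part of these cell types in the levels of Ddit3, Atf3 and Ddit4 was not tested. In whole tissue, fewer cells of a type and less RNA per cell cannot be told apart.

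Over 6 lists of pathway genes, 41 of 99 tested genes were called higher and 0 lower on the deposited scale (0 lower also at an unadjusted limma p under 0.05), and 7 higher and 13 lower after scaling. The shares of all tested genes were 70.2% higher and 0.239% lower on the deposited scale, and 17% higher and 7.08% lower after scaling, so fewer pathway genes than tested genes at large were called higher on either scale. Of 10 tested genes for eIF2, its kinases and its phosphatase, 6 were called higher and 0 lower on the deposited scale, near the 70.2% of all tested genes called higher (median log2 change 1.18, beside 1.22), and 1 was called higher after scaling (median -0.087). Eif2ak3, which encodes PERK, measured 4.49, 13.5 and 6.40 in WT against 28.7, 8.66 and 12.3 in Ela1-Myc, which overlapped (limma adjusted p = 0.174, and 0.461 after scaling). Eif2ak4, which encodes the amino acid sensor GCN2, measured 0.455, 0.745 and 0.838 against 1.28, 1.20 and 1.90. Ela1-Myc lay entirely above WT, as for 75.3% of tested genes, yet the test was not passed (limma adjusted p = 0.0609, and 0.352 after scaling). After scaling the groups overlapped. The WT mean of Eif2ak4, 0.679, lies under the filter of 1, so it was tested only through its Ela1-Myc values. Eif2s1, the eIF2 subunit that these kinases phosphorylate, was the gene called on both scales. It measured 0.555 and 2.47 in WT replicates 1 and 2, was listed at 0 in WT replicate 3, and measured 8.32, 10.5 and 10.8 in Ela1-Myc (limma adjusted p = 0.000212, and 0.0442 after scaling). The phosphatase subunits Ppp1ca and Ppp1cc rose on the deposited scale by 2.02 and 1.47 log2 units (limma adjusted p = 0.0205 and 0.0289) and were not called after scaling (0.53 and 0.038).

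Among bZIP factors that can pair with or resemble ATF4, 6 of 9 were called higher and 0 lower on the deposited scale, again near 70.2% (median 1.33). After scaling 3 were called higher (median 0.66), where 17% of all tested genes were. Those 3 were the AP-1 genes Jun and Junb and the leukocyte gene Batf, each listed at 0 in at least 1 WT library. Their WT means lie below the filter on low levels, so, as with Ddit3, a higher value in Ela1-Myc was built into their selection. Jun measured 1.28 in WT replicate 2 and 0 in the other WT libraries, against 6.74, 4.35 and 8.16 in Ela1-Myc (limma adjusted p = 0.000111, and 0.0192 after scaling). Junb measured 0.543 and 0.274 in WT replicates 1 and 2, and 0 in replicate 3, against 6.17, 7.59 and 9.76. Batf was listed at 0 throughout WT and measured 0.763, 3.48 and 2.57 in Ela1-Myc, lowest in the library with the lowest myeloid sum. No C/EBP partner of ATF4 was called on both scales. Cebpb measured 3.86, 3.96 and 1.84 in WT against 6.76, 2.66 and 6.11 (limma adjusted p = 0.257, and 0.245 after scaling). Cebpg had log2 changes of 0.69 on the deposited scale and -0.15 after scaling, and Atf5 of 1.33 and -0.059, with no call. Cebpa rose by 1.13 log2 units on the deposited scale (limma adjusted p = 0.0351) and lay at -0.11 after scaling. Jund was called higher on the deposited scale (limma adjusted p = 0.00131) and not after scaling (limma adjusted p = 0.0923).

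Of 22 tested amino acid genes that ATF4 controls, 5 were called higher, where 70.2% of all tested genes were, and 0 lower on the deposited scale (Psat1, Psph, Shmt2, Got1 and Slc38a7, named for completeness after their values were seen). All of these but Got1 were listed at 0 in 1 WT library. Slc38a7 had a WT mean of 0.81, under the filter of 1, and the groups overlapped for Psat1. The median log2 change of the 22 was 0.58, beside 1.22 for all tested genes. After scaling 0 were called higher and 4 lower, where 17% and 7.08% of all tested genes were, and the median was -0.64. At an unadjusted limma p under 0.05, 1 was higher and 6 were lower, beside 2436 and 1127 of all 8802 tested genes. Phgdh, which opens serine synthesis, measured 4.78, 110.1 and 20.7 in WT against 149, 88.1 and 83.2 in Ela1-Myc (limma adjusted p = 0.0602, and 0.585 after scaling). WT replicate 2 lay within the Ela1-Myc range. Bcat2, a branched-chain aminotransferase, and Cbs, of the route from homocysteine to cysteine, had log2 changes of 0.043 and -0.18 on the deposited scale. Both were called lower after scaling (-1.46 and -1.68, limma adjusted p = 0.0433 and 0.0345).

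Of 13 tRNA synthetase genes, which load amino acids onto tRNAs, 3 were called higher on the deposited scale, against 70.2% of all tested genes (Eprs, Iars and Lars, also named after their values were seen, median of the list 1.13). After scaling 1 was called lower (median -0.25), where 7.08% of all tested genes were. That gene was Wars, for tryptophan, which measured 26.3, 58.9 and 64.9 in WT against 36.7, 27.9 and 32.7 in Ela1-Myc. Its log2 change was -0.52 on the deposited scale and -2.01 after scaling (limma adjusted p = 0.5 and 0.0124). Gars and Nars, for glycine and asparagine, had log2 changes of 1.21 and 1.13 on the deposited scale and -0.25 and -0.32 after scaling, with no call.

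Other genes listed here as targets of ATF4 and CHOP split. The list was written from general knowledge, and whether ATF4 or CHOP controls each gene in the pancreas was not tested. Of 22 tested, 11 were called higher, below the 70.2% of all tested genes, and 0 lower on the deposited scale (median 0.94), and 2 higher and 5 lower after scaling (median -0.097), where 17% and 7.08% of all tested genes were. The antioxidant regulator Nfe2l2 and the sestrin Sesn1 were the 2 called higher after scaling. Nfe2l2 measured 0.795, 3.52 and 1.13 in WT against 10.1, 19.3 and 17.9 in Ela1-Myc, a log2 change of 2.65 (limma adjusted p = 0.000342), or 1.49 after scaling (limma adjusted p = 0.0248). Sesn1 measured 0.486, 1.97 and 0.874 against 5.10, 6.16 and 6.56 (limma adjusted p = 0.000646, and 0.0443 after scaling). Whether its change differs from that of its relative Sesn2 was not tested. Herpud1, of ER-associated degradation, and Map1lc3b, of autophagy, had log2 changes of -0.17 and 0.11, and were called lower after scaling (-1.69 and -1.39, limma adjusted p = 0.0359 and 0.0318). Eif4ebp1, a brake on translation, had 0.23 and, after scaling, -1.27, with no call.

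In the branches of the ER stress response led by IRE1 and ATF6, 10 of 23 genes were called higher, below the 70.2% of all tested genes, and 0 lower on the deposited scale (median 1.30), and 1 higher and 3 lower after scaling (median -0.046), where 17% and 7.08% of all tested genes were. Hspa5, the main ER chaperone, measured 21.7, 204 and 7.29 in WT against 294, 143 and 176 in Ela1-Myc, with WT replicate 2 inside the Ela1-Myc range. It passed on the deposited scale (limma adjusted p = 0.0405) and not after scaling (0.463). Xbp1, the factor that IRE1 activates by splicing, measured 85.5, 228 and 132 against 162, 103 and 123. Its log2 change was -0.11 on the deposited scale and -1.63 after scaling (limma adjusted p = 0.901 and 0.025), and these values per gene do not show splicing. Pdia3, a folding enzyme, was the gene called higher on both scales (limma adjusted p = 0.000389 and 0.0413), with WT replicates 1 and 3 listed at 0. Sec61b, a subunit of the protein channel of the ER, had log2 changes of 0.88 and -0.65, with no call.

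**Figure D5:**
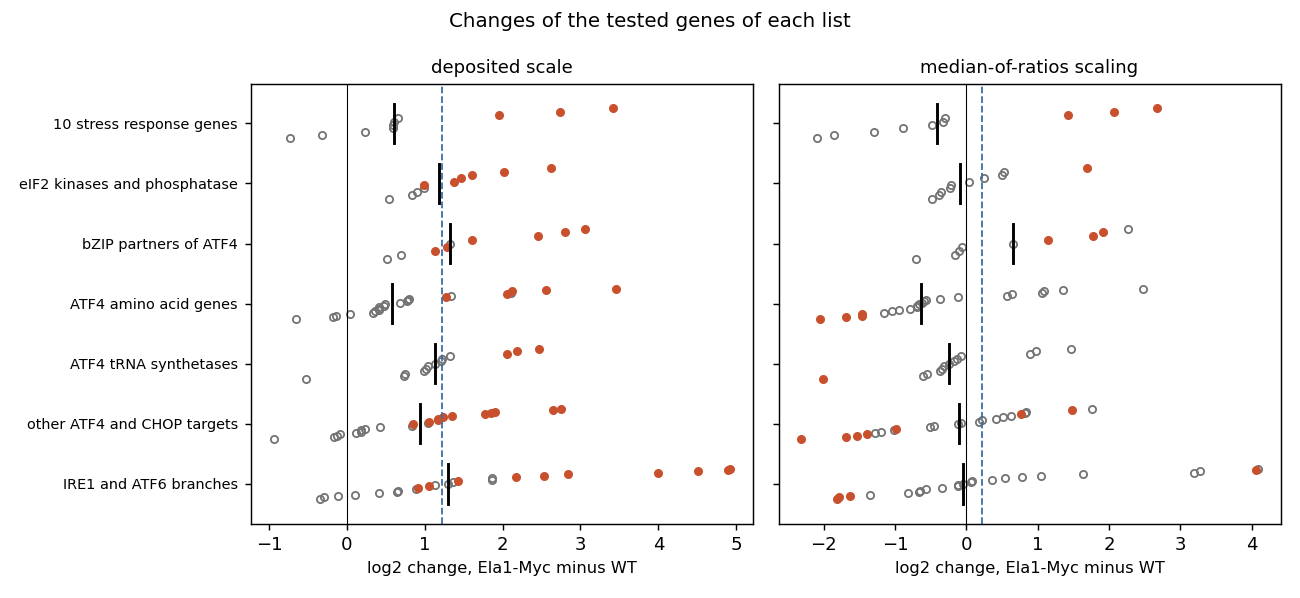
Log2 change (Ela1-Myc minus WT) of every tested gene among the 10 stress response genes and 6 lists of pathway genes, on the deposited scale (left) and after median-of-ratios scaling (right). Filled points passed an adjusted p of 0.05, black bars are list medians and the dashed line is the median of all tested genes, and the median of the amino acid genes lies at 0.58 on the left and at -0.64 on the right.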

How the data were processed

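The deposited files hold 1 adjusted FPKM value per gene and library, as the authors' column headers state. The submitters' processing notes name GRCm38 (mm10) and, in no stated order, TopHat2 2.0.4, Cufflinks 2.0.2, CASAVA 1.8, Bowtie, affy and FastQC 0.9.4. Spike-in RNA (ERCC) was added, per the labels' protocols. Whether it entered the adjustment was not stated there.

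Values, which lie far above the usual FPKM range, were divided by 100000 throughout. Of several rows for a symbol (187 symbols) that with the highest mean was used. The test was limma 3.58.1 in R 4.3.3 on log2(level + 1), a scale that understates changes of low genes, for the 8802 symbols averaging at least 1, with group as the only term, an intensity trend, two-sided p and Benjamini-Hochberg adjustment over all 8802. Scaling factors came from 11198 genes above 0 in all 6 libraries. The fit was tested on simulated data. Alternatives covered scaling, filters, pseudocounts, weights and leaving out each library. The comparison of ratios to Atf4 was added after the data were examined. Figures were drawn with matplotlib 3.10.9.

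The 10 genes and the lists were chosen with earlier results of these data known. Named are the 10 genes, 8 set genes and, from each list, the 3 with the highest mean and up to 3 with the largest scaled change among those called on both scales.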

Additional observations from a re-analysis of the deposited data

How the results depend on the processing

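Atf3 passed under all 15 alternatives that tested it, Ddit4 under 15 of 16 and Ddit3 under 13 of 15. Ddit4 and Ddit3 were lost when 1 was added to values not divided by 100000 (limma adjusted p = 0.0588 and 0.0605), and Ddit3 also under quantile normalization (0.0659). These tallies leave out the fits among genes above 0 in all libraries, which could not test these genes. A higher value in Ela1-Myc was built into their selection, so the tallies are not independent support. Of the other 7, each passed under 1 to 4 of 17 or 18 alternatives. The passes of Atf4 and Ppp1r15a went in opposite directions. Both passed as higher with array weights and without WT replicate 2, and as lower under quantile normalization. Counts of calls are given in the order median-of-ratios scaling, that scaling among genes above 0 in all libraries, scaling factors from tested genes (chosen after seeing the data), enzyme list left out, quantile normalization, genes above 0 in all libraries, a mean of at least 5, array weights (whose estimation did not fully converge) and, with deposited values not divided by 100000, a pseudocount of 1. All tested genes gave 2118, 1328, 2295, 2217, 2334, 4839, 1750, 7704 and 3375 calls, against 6203 of 8802. The genes tested in these fits numbered 8802, 6995, 8802, 8768, 8802, 6995, 3162, 8802 and 8802. The 10 genes gave 3, 2, 5, 5, 7, 0, 1, 7 and 1, against 3, with 7 genes left above 0 in all libraries (1 at an unadjusted limma p under 0.05 on the deposited scale) and 5 left at a mean of at least 5. The pathway genes gave 20, 16, 22, 25, 29, 37, 18, 82 and 15, against 41 of 99. Those tested numbered 99, 82, 99, 99, 99, 82, 66, 99 and 99.

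Log2 changes that turned sign after median-of-ratios scaling, equally so among genes above 0 in all libraries, were Atf4 -0.89, Trib3 -0.33, Asns -1.29, Sesn2 -0.30, Ppp1r15a -0.49, Atf5 -0.059, Bcat2 -1.46, Cebpa -0.11, Cebpb -0.70, Cebpg -0.15, Eif2ak3 -0.48, Eif2ak4 -0.21, Eif4ebp1 -1.27, Gars -0.25, Map1lc3b -1.39, Nars -0.32 and Sec61b -0.65. With factors from tested genes they were Atf4 -0.87, Trib3 -0.31, Asns -1.27, Sesn2 -0.29, Ppp1r15a -0.48, Atf5 -0.035, Bcat2 -1.44, Cebpa -0.089, Cebpb -0.68, Cebpg -0.14, Eif2ak3 -0.46, Eif2ak4 -0.21, Eif4ebp1 -1.26, Gars -0.23, Map1lc3b -1.37, Nars -0.30 and Sec61b -0.63. With the enzyme list left out they were Atf4 -0.61, Trib3 -0.19, Asns -1.01, Sesn2 -0.16, Ppp1r15a -0.30, Bcat2 -1.19, Cebpb -0.49, Eif2ak3 -0.23, Eif2ak4 -0.072, Eif4ebp1 -1.001, Map1lc3b -1.12, Nars -0.048 and Sec61b -0.37. Under quantile normalization they were Atf4 -0.997, Trib3 -0.61, Asns -1.34, Sesn2 -0.64, Ppp1r15a -0.83, Atf5 -0.22, Bcat2 -1.55, Cebpa -0.34, Cebpb -0.95, Cebpg -0.48, Eif2ak3 -0.70, Eif2ak4 -0.59, Eif4ebp1 -1.40, Gars -0.39, Gdf15 -0.17, Map1lc3b -1.51, Nars -0.48, Ppp1cc -0.16 and Sec61b -0.77. With array weights they were Chac1 0.22, Cbs 0.010 and Herpud1 0.0071. The median of all tested genes moved from 1.22 to 0.22 with scaling and to -0.089 under quantile normalization; the cause was not tested.

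Leaving out 1 library at a time gave 3942 of 7947 tested genes called (without Ela1-Myc replicate 3) to 7453 of 9177 (without WT replicate 2). Of the 10 genes 3 to 5 were called. Of the pathway genes 27 of 95 to 76 of 102 were, again with the most without WT replicate 2. Log2 changes ranged from -0.032 to 0.66 for Asns, from -1.12 to 0.24 for Nupr1, from -0.11 to 1.12 for Trib3, from -0.35 to 0.57 for Bcat2, from -0.59 to 0.36 for Cbs, from -0.069 to 0.58 for Eif4ebp1, from -0.48 to 0.22 for Herpud1, from -0.21 to 0.44 for Map1lc3b, from -0.45 to 0.26 for Xbp1 and, after scaling, from -0.99 to 0.041 for Trib3. No paired analysis was possible because the labels give no replicate numbers, and the numbers used here only name the libraries in order of deposit. Read depth is unknown, so no counting error can be given for low genes such as Sesn2 and Trib3.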

Other observations

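Among the listed targets, 2 secreted stress hormones were picked after their values were seen. Fgf21, which acinar cells release, measured 13.8, 21.5 and 10.8 in WT against 12.1, 4.68 and 6.45 in Ela1-Myc, with a log2 change of -0.94 (limma adjusted p = 0.124) and -2.31 after median-of-ratios scaling (limma adjusted p = 0.0108). Gdf15 measured 0.721, 1.12 and 0.340 against 4.66, 1.75 and 1.82, a log2 change of 1.05 that passed on the deposited scale (limma adjusted p = 0.0108) and not after scaling (0.22, limma adjusted p = 0.658). Its WT mean of 0.727 lies under the filter of 1, so it was tested only through its Ela1-Myc values. Under quantile normalization the change of Gdf15 turned to -0.17.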
